A study of Homo sapiens with 12 samples.

Results

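The 78 mitochondrial ribosomal protein genes of the human nuclear genome were followed in 2 colorectal cancer cell lines. They were taken from the 62656 genes of a count table as the protein-coding genes whose symbol is MRPL or MRPS, a number and at most one letter A, B or C, with no pseudogene. Of these, 51 encode proteins of the large subunit, among them MRPS30 and MRPS18A, 26 encode proteins of the small subunit, and MRPS36 encodes a protein that is not counted as a subunit of the mitochondrial ribosome and is now assigned to the alpha-ketoglutarate dehydrogenase complex under the name KGD4. Of the 77 subunits, 46 have a counterpart in the bacterial ribosome and 31 are found in mitochondria but not in bacteria.

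RNA was sequenced from 12 libraries in 4 groups of 3. The groups were HCT116 cells overexpressing SLERT (OE), HCT116 control cells, whose columns are headed Vector, LoVo cells with SLERT knockdown (KD), whose columns are headed Sh, and LoVo control cells, whose columns are headed ShNC. HCT116 and LoVo are established lines from human colorectal tumours. SLERT, a long non-coding RNA, is processed out of TBRG4 introns and capped at its ends by snoRNA sequence. The study asked how SLERT acts in the spread of colorectal cancer to the liver. Each arm is a single line, and since the labels do not say that libraries of one group are separate cultures, the spread that the p-values rest on may be technical.

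The mitochondrial ribosome makes the few proteins encoded by mitochondrial DNA, all of them membrane-embedded subunits of the respiratory chain and the ATP synthase. Its RNAs come from the mitochondrial genome, whereas each of its proteins is encoded in the nucleus, translated in the cytosol and imported. Compared with its bacterial relative it carries less RNA and more protein, and its exit tunnel faces the inner membrane. The 78 genes lie on 21 chromosomes, with 8 each on chromosomes 1, 2 and 17 and 0 on X, Y or the mitochondrial genome.

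The stretch around the start of 4 members is given below, from 220 bases before to 30 bases after the start, in RefSeq coordinates of GRCh38.p14 and written 5′ to 3′ on the gene's strand. MRPL45, MRPS35 and MRPS10 are examples of members called higher in LoVo KD libraries whichever library was left out, and MRPS6 was called lower in the same way. MRPS27, MRPS36 and MRPL15 were also called higher whichever library was left out and are not shown. MRPL15 had no RefSeq sequence. Capitals mark matches on either strand to the letters of 5 motifs, which were GCGC, any 2 bases and GCGC for NRF1, CCGGAAG for ETS factors, AAGATGGC for YY1, CACGTG for the E-box bound by MYC, and GGGCGG for SP1. The windows lie at chr17:38296948-38297197 on the plus strand for MRPL45, at chr6:42217832-42218081 on the minus strand for MRPS10, at chr12:27710612-27710861 on the plus strand for MRPS35 and at chr21:34073358-34073607 on the plus strand for MRPS6.
MRPL45: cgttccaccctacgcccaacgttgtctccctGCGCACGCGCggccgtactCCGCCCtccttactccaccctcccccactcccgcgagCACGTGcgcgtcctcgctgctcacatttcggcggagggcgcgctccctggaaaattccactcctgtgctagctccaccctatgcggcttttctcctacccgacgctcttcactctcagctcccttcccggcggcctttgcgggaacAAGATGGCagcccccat
MRPS10: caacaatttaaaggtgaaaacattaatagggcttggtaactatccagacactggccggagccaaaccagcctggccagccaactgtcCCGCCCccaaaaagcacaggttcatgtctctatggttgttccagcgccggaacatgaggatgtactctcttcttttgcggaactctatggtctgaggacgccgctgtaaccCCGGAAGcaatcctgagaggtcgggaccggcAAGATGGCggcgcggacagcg
MRPS35: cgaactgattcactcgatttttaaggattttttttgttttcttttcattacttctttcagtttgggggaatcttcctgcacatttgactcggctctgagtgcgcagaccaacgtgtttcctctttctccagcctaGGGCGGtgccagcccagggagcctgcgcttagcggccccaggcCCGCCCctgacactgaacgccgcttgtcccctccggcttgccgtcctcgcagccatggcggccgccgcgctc
MRPS6: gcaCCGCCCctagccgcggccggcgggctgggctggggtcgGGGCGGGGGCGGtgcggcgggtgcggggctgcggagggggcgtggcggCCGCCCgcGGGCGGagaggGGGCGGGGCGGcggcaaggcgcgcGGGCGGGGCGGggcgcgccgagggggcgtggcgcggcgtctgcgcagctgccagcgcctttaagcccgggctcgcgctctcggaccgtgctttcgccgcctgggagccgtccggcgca
The MRPL45 window held an NRF1 match 189 bases before the start, an SP1 match at 170 before, an E-box at 133 before and a YY1 match 13 bases after it. The MRPS10 window held an SP1 match 133 bases before the start, an ETS match 22 bases before it and a YY1 match 9 bases after it. The MRPS35 window held SP1 matches alone, at 85 and 42 bases before the start. MRPS6 had 9 SP1 matches, from 217 to 83 bases before the start, some of them overlapping, and none of the other motifs. A match is a run of letters and was not tested as a bound site.

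Over windows of 250 bases before to 50 bases after the start, 70 of the 78 members had a RefSeq sequence. The ETS letters stood in 29 of the 70 windows (41.4%), against 14.2% of 15843 promoters of protein-coding genes. The YY1 letters stood in 20 of the 70 (28.6%), against 3.91% of all promoters. Members with either motif numbered 41 (58.6%, against 17.2% of all promoters), and 8 had both. These are the motifs by which the member promoters stood furthest from the genome-wide share. SP1 letters were in 61.4% of member windows and 58.5% of all windows, NRF1 letters in 12.9% and 12%, and the E-box in 10% and 8.88%. Promoters of cytosolic ribosomal proteins, of which 64 had a sequence, held the ETS letters in 34.4% and the YY1 letters in 9.38%. The matches had preferred places, with a median position 22 bases before the start for ETS and 9 bases after it for YY1, and 15 of the 21 YY1 matches in member windows began at or after the start. MRPL35, MRPL23, MRPL10, MRPL15, MRPL21, MRPL13, MRPL2 and MRPS28 had no entry. No test was made of these shares.

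Many members also start back to back with another gene. A protein-coding gene on the opposite strand began within 1000 bases of the start of 29 of the 78 members (37.2%), against 13% of 19831 protein-coding genes, and for 15 of the 29 the starts lay within 100 bases of each other. Several of these partners serve mitochondria themselves. NDUFB5, a subunit of respiratory complex I, starts 36 bases from MRPL47, and NDUFS6, another complex I subunit, starts 34 bases from MRPL36. TWNK, the mitochondrial DNA helicase, is the partner of MRPL43, SARS2, the mitochondrial seryl-tRNA synthetase, that of MRPS12, and PTCD2, a mitochondrial RNA-binding protein, that of MRPS27. MRPL46 and MRPS11, one from each subunit, start 34 bases apart and are each other's partner.

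**Figure D1:**
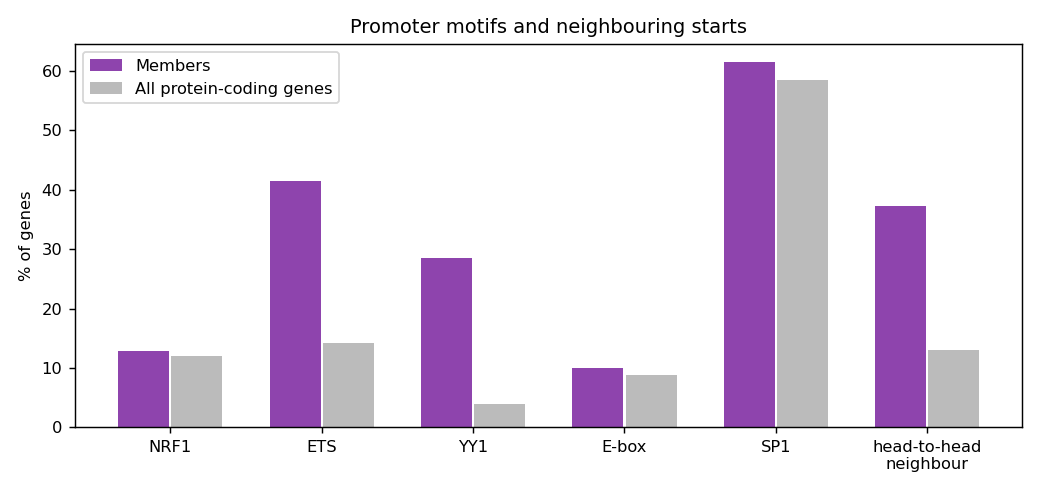
Share of members (purple) and of all protein-coding genes (grey) whose promoter window holds the letters of each motif, and, at the right, share with a protein-coding neighbour that starts on the opposite strand within 1000 bases. The y axis is the percentage of genes, of 70 members and 15843 promoters for the motifs and of 78 members and 19831 genes for the neighbours; the ETS, YY1 and neighbour bars stand apart, at 41.4, 28.6 and 37.2% of members against 14.2, 3.91 and 13%.

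The libraries held 14.46 to 17.23 M counts each (M, 1e6). SLERT has no row of its own under that name in the symbols used here, so its locus was read from SNORA5C, SNORA5A and TBRG4. SNORA5C had 551, 661 and 714 counts in HCT116 OE libraries and 4, 4 and 8 in HCT116 controls, a log2 fold change of 6.97 (SE 0.21, adjusted p = 3.50e-19). SNORA5A had 39, 46 and 57 counts in HCT116 OE libraries and 0, 0 and 0 in HCT116 controls, and TBRG4 was higher with OE (log2 fold change 0.66, SE 0.058, adjusted p = 5.24e-08). In LoVo, SNORA5A had 1, 8 and 1 counts in KD libraries and 3, 7 and 2 in controls. SNORA5C there had 11, 14 and 12 counts in KD libraries and 9, 9 and 19 in controls (log2 fold change -0.02, SE 0.43, adjusted p = 0.980), and TBRG4 differed by 0.07 (SE 0.061, adjusted p = 0.413). The locus was thus higher with overexpression and showed no detectable fall in the libraries labelled knockdown, so every LoVo direction below is by label. The libraries held epithelial transcripts, with 10 colorectal epithelial markers summing to 3577 to 3834 CPM in HCT116 OE, 3373 to 3506 in HCT116 controls, 6437 to 6943 in LoVo KD and 7311 to 7806 in LoVo controls. Only 6 of the 10 passed the count filter in HCT116, where CDX1 was at 0 counts and CDH17, VIL1 and LGALS4 were too low. In LoVo KD libraries edgeR called 3 of the 10 higher and 5 lower, against 12.6% and 13.7% of all genes. The labels' extraction text speaks of retinas, whereas the labels otherwise name colorectal cancer cells, and it was not relied on. Fibroblast and endothelial markers summed to 70.9 to 77.0 CPM in HCT116 OE, 78.2 to 85.3 in HCT116 controls, 3.71 to 4.97 in LoVo KD and 15.2 to 15.9 in LoVo controls. Leukocyte markers stayed at 3.90 CPM or below. The part of these markers in the results below was not tested.

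Levels between genes were compared per length, in FPKM as deposited. The order of the members depends on the gene length behind the FPKM, which was worked back from counts and FPKM. For some members it differs from the exon bases of GENCODE v29. It was 582 bases against 1262 for MRPL41, and 13738 against 6719 for MRPS5, which lay under 1 FPKM. How the lengths were set is not given. The members were abundant, with a median over the 77 members with a value of 13.8 FPKM as a mean over all libraries, against 2.88 FPKM for 17544 protein-coding genes. The median over the 78 members was 15.1 FPKM in HCT116 OE, 13.8 in HCT116 controls, 13.3 in LoVo KD and 12.6 in LoVo controls. The proteins are built into one particle in fixed proportion, but their transcripts were not equal, and the 10 highest members held 35.2% of the summed FPKM in HCT116 OE, 35.3% in HCT116 controls, 38.3% in LoVo KD and 38.2% in LoVo controls.

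MRPL41, a mitochondrion-specific protein of the large subunit, had the highest mean over the 12 libraries. Its level was 84.6 ± 7.44 FPKM in HCT116 OE, 71.4 ± 18.4 in HCT116 controls, 66.7 ± 6.66 in LoVo KD and 66.5 ± 6.11 in LoVo controls (SD, n = 3 each). MRPL51, also of the large subunit, had 66.2 ± 4.71 FPKM in HCT116 OE, 60.5 ± 9.01 in HCT116 controls, 58.7 ± 4.77 in LoVo KD and 57.9 ± 8.44 in LoVo controls. These levels differed between the groups by less than the larger SD of the controls. MRPS35, a mitochondrion-specific protein of the small subunit, was the highest of the 78 in both LoVo groups, at 98.3 ± 10.7 FPKM in KD and 74.9 ± 2.76 in controls, and ranked 18 in both HCT116 groups, at 33.4 ± 0.986 FPKM in OE and 29.7 ± 2.69 in controls. MRPL37, of the large subunit, had 48.7 ± 1.96 FPKM in HCT116 OE, 42.7 ± 1.16 in HCT116 controls, 69.3 ± 2.33 in LoVo KD and 63.8 ± 2.38 in LoVo controls. MRPS26, of the small subunit, followed with 58.7 ± 5.17 FPKM in HCT116 OE, 54.4 ± 3.14 in HCT116 controls, 46.1 ± 0.838 in LoVo KD and 50.6 ± 0.397 in LoVo controls. In the order of means over all 12 libraries MRPL41 had 72.3 FPKM, MRPL51 60.8, MRPS35 59.1, MRPL37 56.1 and MRPS26 52.4, and MRPS35 and MRPL37 were higher in LoVo than in HCT116.

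At the other end, MRPS18C averaged 0.515 FPKM, MRPL2 0.278, MRPL46 0.222 and MRPS24 0.0994 over the 12 libraries, and MRPL53 was at 0 counts in all 12. Each of these genes shares exon bases with a neighbour in GENCODE v29. MRPL53 shares 608 of its exon bases (45.2%) with CCDC142, which held 2300 counts. MRPS24 shares 606 bases (23.2%) with the read-through gene URGCP-MRPS24, and MRPL2 shares 373 (14.7%) with KLC4 on the opposite strand. MRPS18C shares 1956 (40.2%) with ABRAXAS1 on the opposite strand and MRPL46 724 (11.3%) with AC013489.1. The 8 members under 1 FPKM all share exon bases, whereas the lowest of the 37 members that share none, MRPL22, averaged 6.30 FPKM. The median was 9.96 FPKM over the 41 sharing members and 19.1 FPKM over the others, and 8 of the 10 highest members share no bases. MRPL51 shares 31.3% of its exon bases, with NCAPD2 on the opposite strand, and averaged 60.8 FPKM. The part of shared bases in the levels was not tested. The levels of the 41 are uncertain, since the sources used here do not give how reads of shared bases were counted. Pseudogenes of the family, by contrast, held few counts, 422 over 75 pseudogenes against 646690 for the members (0.0653%). How reads that match both a member and a pseudogene were counted is not given.

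**Figure D2:**
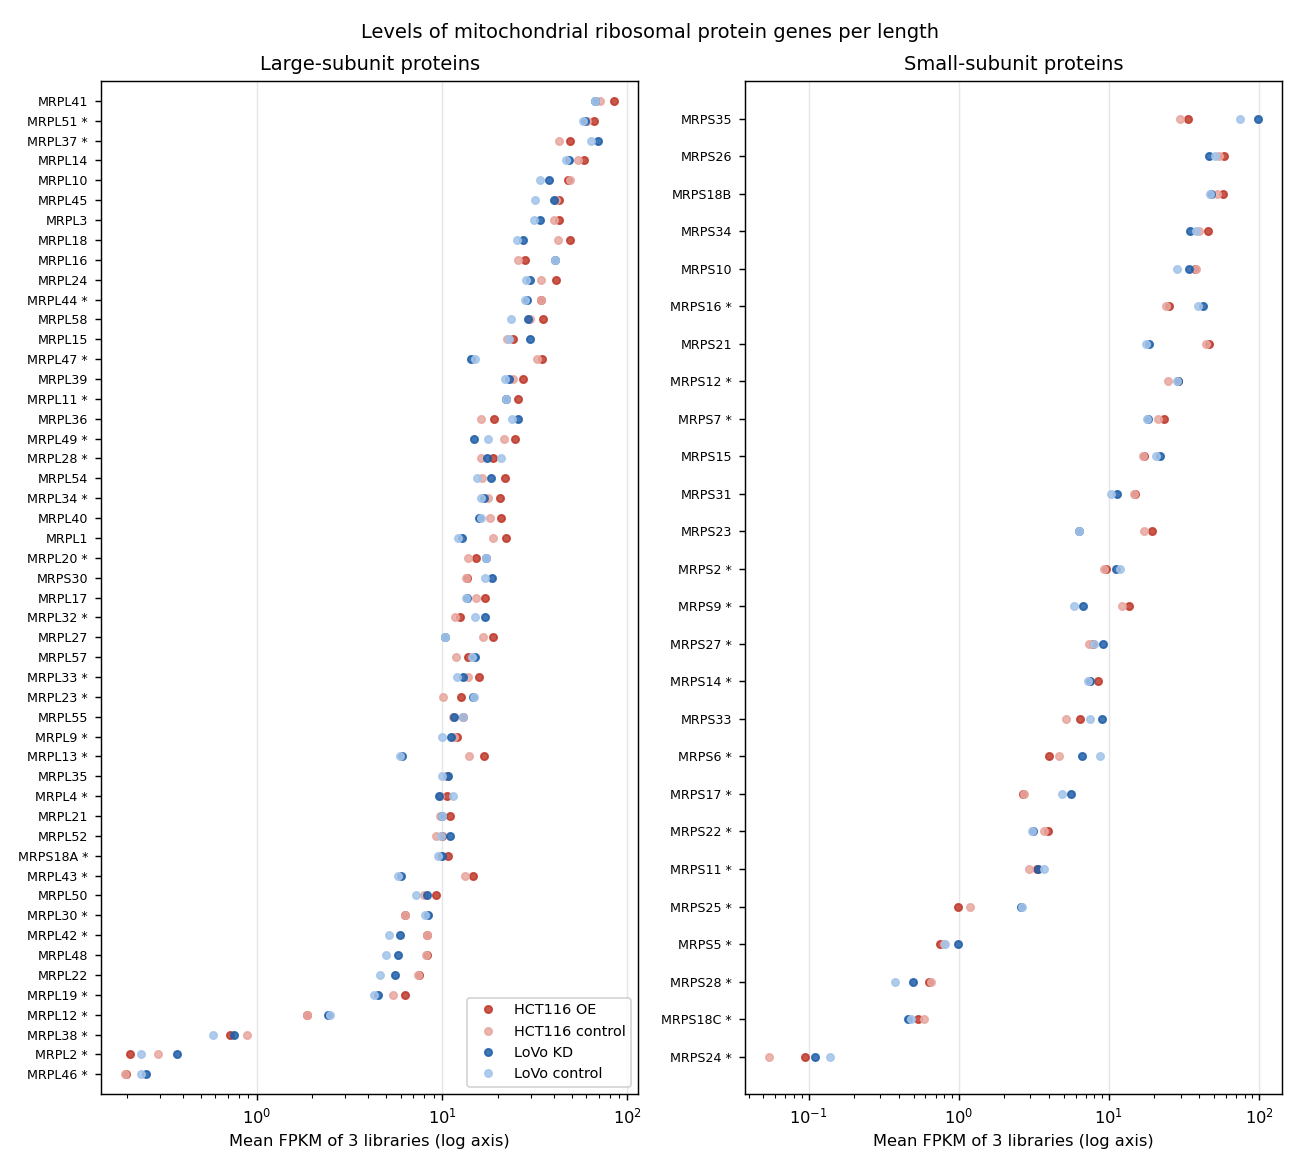
Mean FPKM of each member by group on a log axis, ordered by the mean over all 12 libraries, with large and small subunit members apart; an asterisk marks a member that shares exon bases with another gene. MRPL53, at 0, and MRPS36 are not drawn; MRPL41 leads the large subunit at 72.3 FPKM as a mean of all libraries, MRPS35 separates the LoVo groups (98.3 and 74.9) from the HCT116 groups (33.4 and 29.7), and the lowest genes all carry the asterisk.

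In HCT116, most members had a small positive change in the OE libraries, and 1 passed the test. With edgeR's quasi-likelihood test, adjusted over 15980 genes, 1 of 76 tested members was called higher and 0 lower, at a background of 0.507% of all genes called higher and 0.407% called lower. No member was called lower by DESeq2 either, and 1, MRPS25 (log2 fold change -0.24), was lower at an unadjusted p under 0.05 (background 6.82%). The median log2 fold change of the members was 0.14, against -0.00 over all genes, and 67 of 76 were above 0 (background 49.4%). At an unadjusted p under 0.05, 32 members (42.1%) were higher, where 7.56% of all genes were. The groups did not overlap in 22 members that were higher (28.9%, background 9.56%) and in 2 that were lower (background 9.58%). Members of the large subunit had a median of 0.16, with 47 of 50 above 0, and those of the small subunit 0.11, with 19 of 25 above 0. The 45 tested members with a bacterial counterpart and the 30 without had medians of 0.14 and 0.15. Among the 37 members that share no exon bases, 35 were above 0, with a median of 0.18.

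Summed over all members, the transcripts made up 0.352, 0.372 and 0.375% of the counts in HCT116 OE libraries and 0.321, 0.335 and 0.356% in HCT116 controls. The shares overlapped through control 3, which lay above OE 1. The median over members of the log2 deviation from each gene's mean in the line was 0.01, 0.10 and 0.13 in OE libraries and -0.17, -0.09 and 0.02 in controls. Counts of mitochondrially encoded genes made up 7.22, 7.59 and 7.56% of OE libraries and 8.11, 7.52 and 7.90% of controls, and those of cytosolic ribosomal proteins 4.90, 5.26 and 5.57% of OE libraries and 4.80, 4.91 and 5.73% of controls. Those groups overlapped. In bulk RNA, fewer cells that express a gene and less RNA per cell cannot be told apart.

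**Figure D3:**
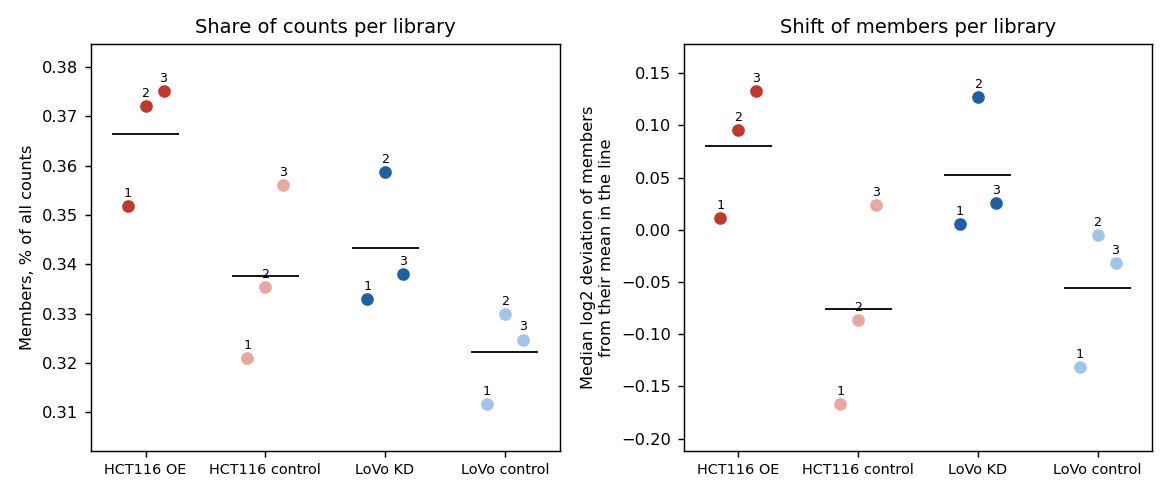
Members in each of the 12 libraries, OE left of control in HCT116 and KD left of control in LoVo, as the share of all counts in percent and as the median over members of the log2 deviation from each gene's mean in its line. HCT116 control 3 lies among the OE libraries at 0.356% of counts, whereas the LoVo KD libraries, at 0.333 to 0.359%, all lie above the LoVo controls, at 0.312 to 0.330%.

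MRPL13, a large subunit protein with a bacterial counterpart (ENSG00000172172, chr8:120380761-120445402, minus strand), was the member that rose in HCT116. Its level was 66.7, 76.4 and 71.2 CPM in OE libraries and 56.6, 57.8 and 62.1 CPM in controls, a log2 fold change of 0.28 (SE 0.069, adjusted p = 0.0429). All 3 OE libraries lay above all 3 controls, but the call was narrow. Leaving out a library ended it in 4 of 6 cases, at an adjusted p of 0.144 for OE 3, 0.165 for OE 2, 0.168 for control 2 and 0.22 for control 1, and it was lost also with upper quartile scaling, in the fit of all 12 libraries and in limma on FPKM, with adjusted p from 0.000315 to 0.33 over the alternatives. Its exon bases overlap by 3 with MTBP on the opposite strand, whose log2 fold change was 0.19 (SE 0.094, adjusted p = 0.347).

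The next members by p did not pass the test, and most belong to the large subunit. MRPL23, which sits at the mouth of the exit tunnel, had 34.3, 39.2 and 41.3 CPM in OE libraries and 27.5, 28.6 and 33.8 in controls, with a log2 fold change of 0.35 (SE 0.089, adjusted p = 0.0522). MRPL37 had 123, 122 and 132 CPM in OE libraries and 109, 105 and 112 in controls (log2 fold change 0.21, SE 0.058, adjusted p = 0.0740). MRPL11, of the stalk base where translation factors dock, had 62.2, 68.4 and 66.9 CPM in OE libraries and 54, 55.1 and 59.2 in controls (log2 fold change 0.23, SE 0.068, adjusted p = 0.0976). In these 3 the groups did not overlap. MRPL54, mitochondrion-specific, had 18.7, 24.7 and 22 CPM in OE libraries and 13.8, 15.2 and 19.5 in controls (log2 fold change 0.43, SE 0.12, adjusted p = 0.0747). MRPL24 had 64.6, 73.7 and 73.8 CPM in OE libraries and 49.7, 58.6 and 65.4 in controls (log2 fold change 0.29, SE 0.081, adjusted p = 0.0778). Control 3 reached into the OE range in both. MRPS33 (log2 fold change 0.32, SE 0.094, adjusted p = 0.0988), MRPL49 (log2 fold change 0.22, SE 0.067, adjusted p = 0.107), MRPL18 (log2 fold change 0.24, SE 0.075, adjusted p = 0.118) and MRPS23 (log2 fold change 0.19, SE 0.062, adjusted p = 0.133) complete the 10 smallest p-values, each with OE libraries above all controls. Among the paralogs of bacterial protein S18, which occupy different places on the ribosome, MRPS18A differed by 0.15 (SE 0.11, adjusted p = 0.570), MRPS18B by 0.14 (SE 0.059, adjusted p = 0.251) and MRPS18C by -0.10 (SE 0.31, adjusted p = 0.920).

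In LoVo more members passed the test, 11 of 75 higher in KD libraries and 3 lower, of 16253 genes tested. Set against the background this is little, since 12.6% of all genes were called higher in this line and 13.7% lower, so the members' share called higher (14.7%) was near that of all genes and their share called lower (4%) was under it. The median log2 fold change was 0.10, against 0.00 over all genes, and 63 of 75 members were above 0 (background 50.1%). The groups did not overlap in 23 members that were higher (30.7%, background 19.6%) and in 4 that were lower (background 20.1%). Large subunit members numbered 6 higher and 2 lower of 49 with a median of 0.10, and small subunit members 4 higher and 1 lower of 25 with a median of 0.06. The remaining rise was MRPS36. The members without a bacterial counterpart counted 6 higher and 1 lower of 30, and those with one 4 higher and 2 lower of 44. Of the 11 that rose, 9 share no exon bases with another gene, and all 3 that fell share some.

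**Figure D4:**
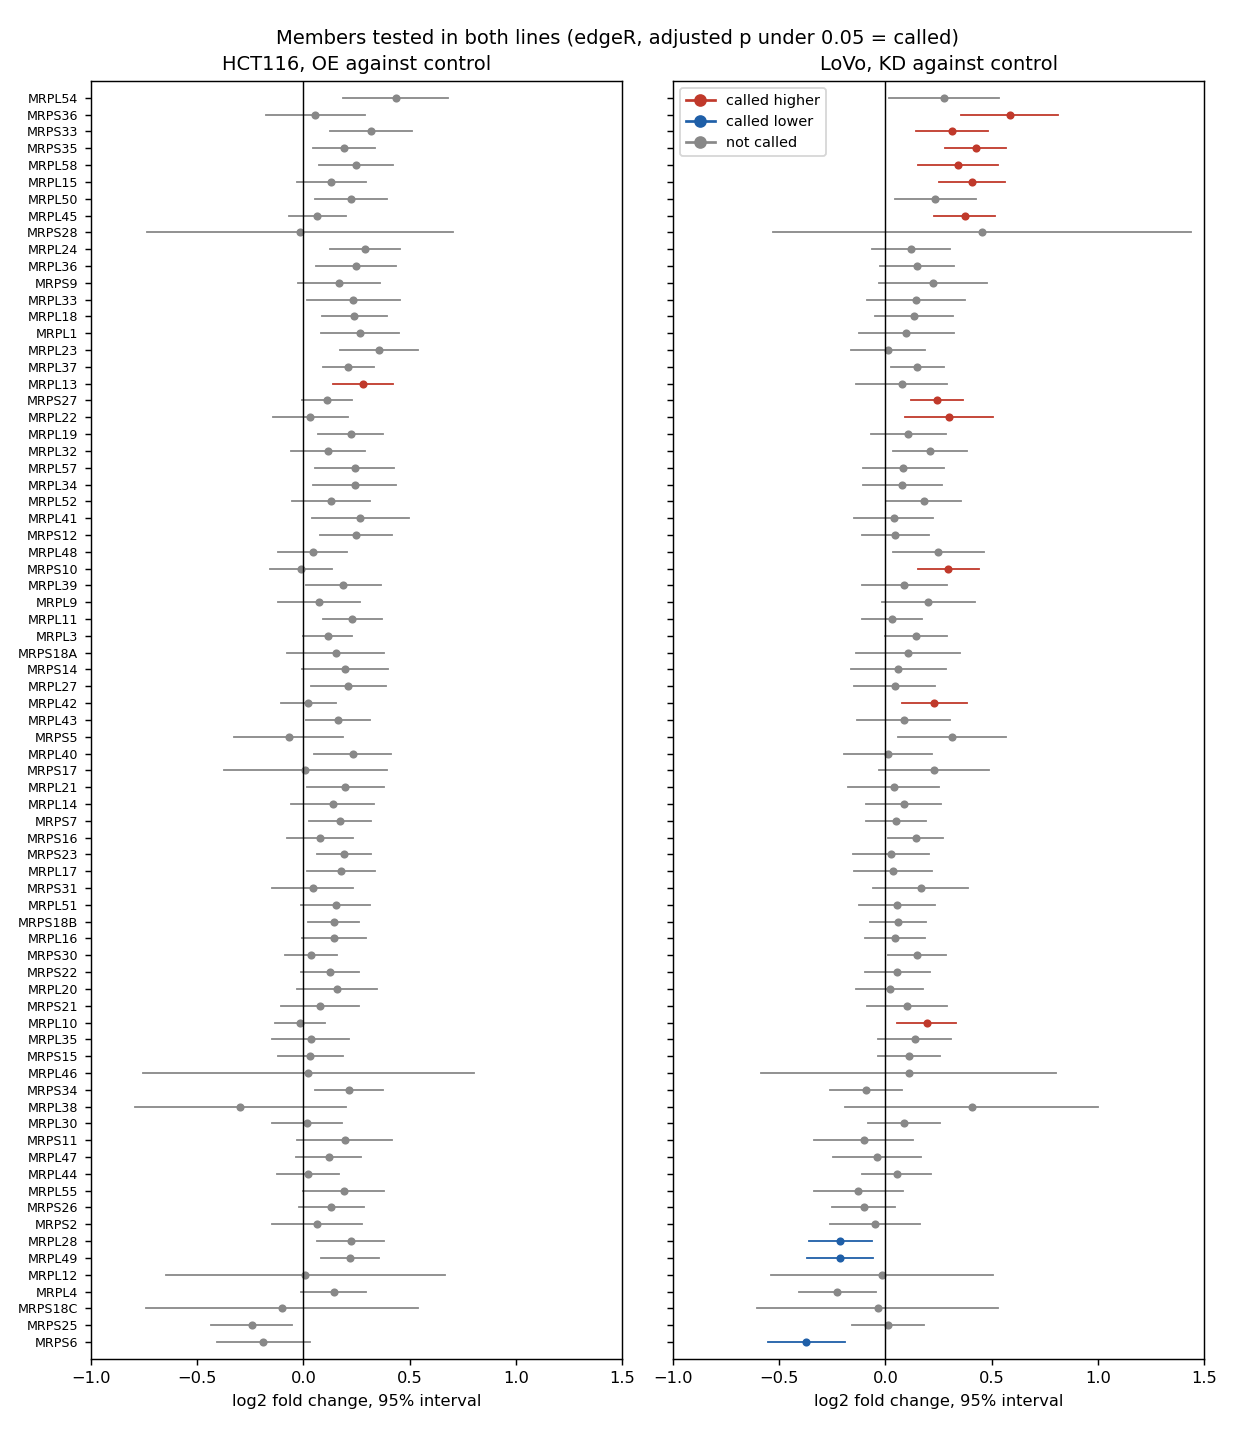
Log2 fold changes with 95% intervals of the 75 members tested in both lines, HCT116 OE against control on the left and LoVo KD against control on the right, in the same order; red marks genes called higher and blue genes called lower at an adjusted p under 0.05. Most points lie right of 0 in both panels, with 1 call in HCT116 and 14 in LoVo, and the widest intervals belong to members with few counts.

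Of the small subunit, MRPS35, MRPS10, MRPS27 and MRPS33 rose. MRPS35 (ENSG00000061794, chr12:27710773-27756295, plus strand) had 172, 213 and 191 CPM in KD libraries and 146, 145 and 138 CPM in controls, a log2 fold change of 0.42 (SE 0.069, adjusted p = 8.45e-05). MRPS10, which has a bacterial counterpart (ENSG00000048544, chr6:42206801-42217865, minus strand), had 68, 75.6 and 72.6 CPM in KD libraries and 56.4, 59.2 and 60.5 CPM in controls (log2 fold change 0.30, SE 0.070, adjusted p = 0.00304). MRPS27, a pentatricopeptide repeat protein (ENSG00000113048, chr5:72219409-72320646, minus strand), had 186, 185 and 175 CPM in KD libraries and 157, 149 and 156 CPM in controls (log2 fold change 0.24, SE 0.059, adjusted p = 0.00416). In these 3 every KD library lay above every control, and the calls held with any 1 library left out. MRPS33, mitochondrion-specific, had 47.4, 49.2 and 47.7 CPM in KD libraries and 35.1, 42.7 and 38.4 CPM in controls (log2 fold change 0.31, SE 0.081, adjusted p = 0.00635), with no overlap, and missed the threshold without control 1 (adjusted p = 0.0584). Limma on log2(FPKM + 1) put MRPS35 at an adjusted p of 0.0524, MRPS27 at 0.0611 and MRPS33 at 0.0921, each over the threshold. MRPS27 shares 190 exon bases with PTCD2, which starts on the other strand and also rose (log2 fold change 0.27, SE 0.085, adjusted p = 0.0230).

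Of the large subunit, MRPL15 and MRPL45 rose most among the called members. MRPL15, which has a bacterial counterpart, had 51.5, 56.8 and 52.3 CPM in KD libraries and 39.6, 39.9 and 41.5 CPM in controls, a log2 fold change of 0.41 (SE 0.075, adjusted p = 0.000314). MRPL45 (ENSG00000278845, chr17:38297023-38323218, plus strand), which lies at the exit tunnel and ties the ribosome to the inner membrane, had 70.1, 69.1 and 68.2 CPM in KD libraries and 50.8, 55.3 and 53.9 CPM in controls (log2 fold change 0.37, SE 0.069, adjusted p = 0.000338). Both separated the groups without overlap and were called with any 1 library left out. MRPL58, a peptidyl-tRNA hydrolase built into the large subunit that frees stalled ribosomes, had 31.4, 31.4 and 35.4 CPM in KD libraries and 23.4, 27.1 and 27 CPM in controls (log2 fold change 0.34, SE 0.091, adjusted p = 0.00769). MRPL42 had 90.4, 111 and 95.8 CPM in KD libraries and 79.2, 86.2 and 87.7 CPM in controls (log2 fold change 0.23, SE 0.074, adjusted p = 0.0245). MRPL22, which lines the exit tunnel, had 29.1, 32.4 and 28.1 CPM in KD libraries and 20.9, 27.2 and 24.8 CPM in controls (log2 fold change 0.30, SE 0.10, adjusted p = 0.0296). These rises also separated the groups, but single libraries decided the calls. MRPL58 lost its call without control 1 (adjusted p = 0.0632) or KD 3 (0.0645), MRPL42 without control 1 (0.134), control 3 (0.0539), KD 2 (0.117) or KD 3 (0.0518), and MRPL22 without control 1 (0.194), control 3 (0.0776) or KD 2 (0.0852). MRPL10, the stalk protein that carries MRPL12, had 112, 102 and 103 CPM in KD libraries and 97, 86.5 and 93.6 CPM in controls (log2 fold change 0.19, SE 0.067, adjusted p = 0.0356), also without overlap, and lost its call without control 2 (adjusted p = 0.166), control 3 (0.096), KD 1 (0.112) or KD 3 (0.0729). DESeq2 put MRPL22 over the threshold as well (adjusted p = 0.0650). Limma on FPKM called none of these 4 at either pseudocount.

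MRPS36 (ENSG00000134056, chr5:69217760-69230129, plus strand), which links the enzymes of the alpha-ketoglutarate dehydrogenase complex, had the largest change of any called member. It was at 19.9, 24.9 and 22.2 CPM in KD libraries and 13.5, 15.2 and 16 CPM in controls, with a log2 fold change of 0.59 (SE 0.11, adjusted p = 0.000404), held with any 1 library left out. The groups lay well apart, with the lowest KD library above the highest control.

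MRPS6, a small subunit protein with a bacterial counterpart (ENSG00000243927, chr21:34073224-34143034, plus strand), fell. It was at 28.3, 28.7 and 28.3 CPM in KD libraries and 35.2, 41.1 and 34.1 CPM in controls, with a log2 fold change of -0.37 (SE 0.088, adjusted p = 0.00314), without overlap, and it was called with any 1 library left out. MRPS6 shares 273 exon bases on the same strand with SLC5A3, the sodium and myo-inositol cotransporter, which held 17188 counts against 4752 for MRPS6 and fell further, by 0.70 on the log2 scale (SE 0.064, adjusted p = 1.98e-08). The part of shared reads in the change of MRPS6 was not tested. MRPL28, of the large subunit, had 55.8, 55.4 and 51.3 CPM in KD libraries and 63, 65.2 and 60.0 CPM in controls (log2 fold change -0.21, SE 0.071, adjusted p = 0.0305), and lost its call without control 1 (adjusted p = 0.0865), control 2 (0.118), control 3 (0.0567) or KD 3 (0.167). It also lost the call by DESeq2 (adjusted p = 0.0572), without the filter on low counts (0.0575) and by limma on log2(FPKM + 1) (0.0518). It shares 223 exon bases with TMEM8A, which fell too (log2 fold change -0.34, SE 0.093, adjusted p = 0.00818). MRPL49 had 43.9, 45.8 and 49.9 CPM in KD libraries and 54.3, 53.3 and 54.5 CPM in controls (log2 fold change -0.21, SE 0.074, adjusted p = 0.0358), and kept its call in 1 of the 6 fits that left out a library, without KD 3, with adjusted p of 0.0687 (without KD 2) to 0.123 (without control 3) in the others. It also lost the call by DESeq2 (adjusted p = 0.0701), without the filter on low counts (0.0684) and by limma at a pseudocount of 1 (0.0589) or 0.1 (0.0554). KD libraries lay under all controls in both genes. MRPL49 shares 282 bases with FAU, which rose (log2 fold change 0.27, SE 0.094, adjusted p = 0.0362), and 356 with SYVN1, which did not pass the test (log2 fold change -0.20, SE 0.078, adjusted p = 0.0615), both on the opposite strand.

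**Figure D5:**
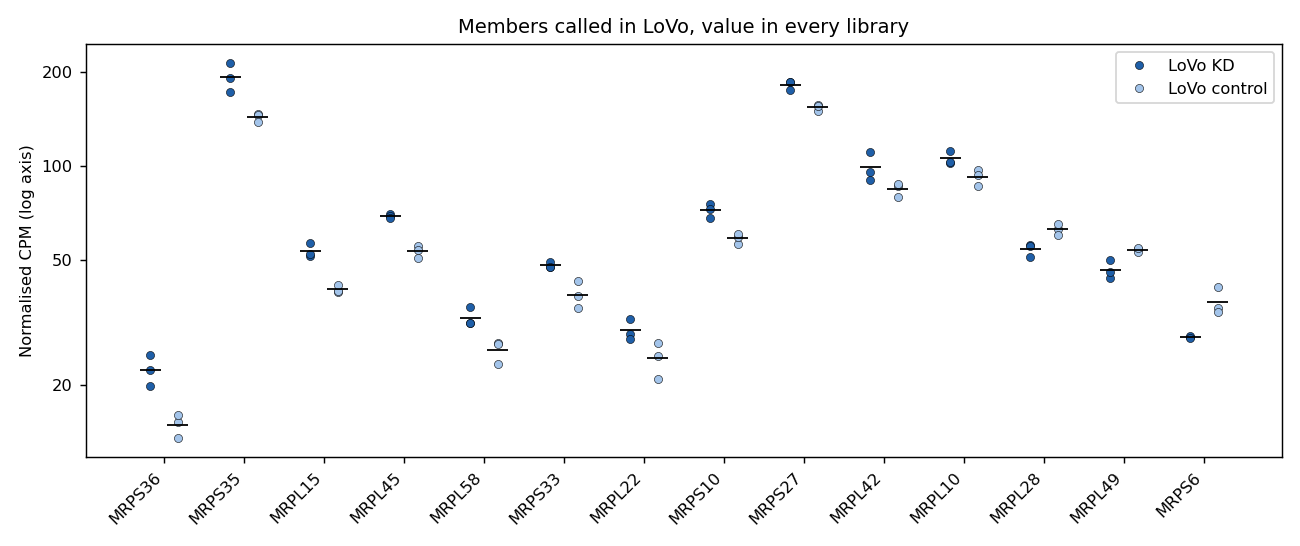
Normalised CPM of the 14 members called in LoVo, per library on a log axis, with a bar at each mean, KD left of control for each gene. The KD points lie above the control points in the 11 genes called higher, as in MRPS35 with 172 to 213 against 138 to 146 CPM, and under them in MRPS6, MRPL28 and MRPL49.

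The paralogs MRPS18A (log2 fold change 0.11, SE 0.12, adjusted p = 0.552), MRPS18B (log2 fold change 0.06, SE 0.064, adjusted p = 0.552) and MRPS18C (log2 fold change -0.04, SE 0.27, adjusted p = 0.939) did not pass the test in LoVo. MRPS18C had 2.26 ± 0.610 CPM in KD libraries and 2.33 ± 0.479 in controls, against 84.9 ± 1.93 in KD libraries and 81.6 ± 1.35 in controls for MRPS18B (SD, n = 3 each). As shares of all counts the members made up 0.333, 0.359 and 0.338% in KD libraries and 0.312, 0.330 and 0.325% in controls, with no overlap. Mitochondrially encoded genes took 5.92, 6.14 and 5.78% of counts in KD libraries and 5.08, 5.52 and 5.37% in controls, and cytosolic ribosomal proteins 7.48, 7.92 and 7.23% in KD libraries and 6.11, 6.81 and 6.83% in controls. These too separated the groups.

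The members' changes mostly had the same sign under both manipulations, although the labels give SLERT opposite directions. Of the 75 members tested in both lines, 57 were above 0 in both (76.0%, against 27.3% of 14217 genes), 10 were above 0 in HCT116 OE and below 0 in LoVo KD, 6 were the reverse, and 2, MRPS6 and MRPS18C, were below 0 in both, although the sign of MRPS18C turned when single libraries were left out. These are signs of mostly uncalled changes. The share above 0 in both lines follows largely from the separate counts, 67 of 76 above 0 in HCT116 and 63 of 75 in LoVo. It is therefore no measure of agreement between the lines. A single fit of all 12 libraries tested the change with more SLERT, OE minus control in HCT116, against control minus KD in LoVo. Of 76 members, 14 were called higher in this difference (background 6.94%) and 1 lower (background 7.61%), with a median of 0.25 on the log2 scale. Because the LoVo term runs from KD to control, the difference equals the OE change plus the KD change.

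MRPS35 had a difference of 0.61 (SE 0.10, adjusted p = 0.000112), made of 0.19 in HCT116 OE against control and 0.42 in LoVo KD against control. MRPL15 had a difference of 0.54 (SE 0.11, adjusted p = 0.00112), from 0.13 in HCT116 and 0.41 in LoVo. MRPS33 had 0.63 (SE 0.13, adjusted p = 0.00142), from 0.32 in HCT116 and 0.31 in LoVo. In MRPS33 both manipulations contributed alike, whereas MRPS35 and MRPL15 rested mainly on LoVo. MRPL45 (difference 0.44, SE 0.093, adjusted p = 0.00190), MRPL58 (difference 0.59, SE 0.13, adjusted p = 0.00251) and MRPL37 (difference 0.36, SE 0.081, adjusted p = 0.00286) followed by p. MRPS6 was the 1 member called with a negative difference (difference -0.56, SE 0.14, adjusted p = 0.00693), from -0.19 in HCT116 and -0.37 in LoVo.

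Differences between the lines reached 1.55 on the log2 scale, against at most 0.59 among the members called within a line. Between HCT116 controls and LoVo controls, 36 of 76 members were called higher in HCT116 (background 38.7%) and 16 lower (background 37.9%), with a median log2 difference of 0.22. The large subunit had 26 higher and 9 lower, and the small subunit 9 higher and 7 lower. MRPS23, a mitochondrion-specific small subunit protein, had 113 ± 7.92 CPM in HCT116 controls and 38.5 ± 4.45 CPM in LoVo controls, 2.93-fold higher in HCT116 (log2 difference 1.55, SE 0.076, adjusted p = 1.97e-17, SD over n = 3 each). MRPS21 was 68.6 ± 8.07 CPM in HCT116 and 25.2 ± 2.04 in LoVo (log2 difference 1.45, SE 0.10, adjusted p = 5.98e-14), and MRPL13 was 60.9 ± 2.84 CPM in HCT116 and 23.9 ± 1.53 in LoVo (log2 difference 1.35, SE 0.089, adjusted p = 2.64e-14). MRPL43 (log2 difference 1.31, SE 0.090, adjusted p = 8.18e-14) and MRPL47 (log2 difference 1.21, SE 0.085, adjusted p = 1.20e-13) were the next largest. MRPS35 led the members lower in HCT116, with 59 ± 5.21 CPM in HCT116 controls and 138 ± 4.39 CPM in LoVo controls (log2 difference -1.23, SE 0.072, adjusted p = 1.53e-15). MRPS25 (log2 difference -1.05, SE 0.083, adjusted p = 2.17e-12), MRPS6 (log2 difference -0.80, SE 0.10, adjusted p = 1.24e-08), MRPS17 (log2 difference -0.75, SE 0.16, adjusted p = 0.000130) and MRPS16 (log2 difference -0.61, SE 0.072, adjusted p = 7.29e-09) were lower as well, so the 5 largest deficits of HCT116 were all in small subunit genes. SLC5A3, with which MRPS6 shares exon bases, was lower in HCT116 too (log2 difference -1.64, SE 0.065, adjusted p = 1.05e-19). Line, culture and library preparation cannot be told apart in this comparison.

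Genes that work with the mitochondrial ribosome were described by the same counts. Over all 15980 genes tested in HCT116, edgeR called 0.507% higher and 0.407% lower, and DESeq2 called 196 genes higher and 85 lower. DESeq2 gave no adjusted p in HCT116 to some genes of the lists below, among them FARS2, MTRF1, GABPB1 and DDX28. Such genes count as not called by DESeq2. At an unadjusted p under 0.05, 7.56% of all genes were higher. In HCT116, 0 of 25 tested assembly factors were called by edgeR or DESeq2 (8 higher at an unadjusted p under 0.05, median 0.11), as were 0 of 15 genes listed as translation factors (2 higher, median 0.08). The same held for 0 of 20 genes for mitochondrial aminoacyl-tRNA synthetases and subunits of the glutamyl-tRNA amidotransferase (3 higher, median 0.08). Ribosomal proteins known by other names had 0 of 5 called (2 higher, median 0.14). Of 17 genes for the upkeep and transcription of mitochondrial DNA, edgeR called 0 and DESeq2 called 2 higher (7 higher at an unadjusted p under 0.05, median 0.12). Of 8 regulators of mitochondrial biogenesis, 0 were called by edgeR or DESeq2 (2 higher at an unadjusted p under 0.05, median 0.08). Import genes had 2 of 17 called higher and 0 lower, TOMM40, the channel of the outer membrane (log2 fold change 0.28, SE 0.057, adjusted p = 0.0111), and HSPD1, the matrix chaperonin (log2 fold change 0.21, SE 0.047, adjusted p = 0.0285), with a median of 0.15. Among the 15 mitochondrially encoded genes MT-RNR1, the small ribosomal RNA, was higher (log2 fold change 0.31, SE 0.050, adjusted p = 0.00185), with a median of -0.01 over the list. Of 78 cytosolic ribosomal proteins 0 were called by either tool and 0 had an unadjusted p under 0.05, with a median of 0.06. The difference between this median and the members' 0.14 was not tested.

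The counts in LoVo are to be read against 12.6% of all genes called higher and 13.7% called lower by edgeR. The list of translation factors, which also holds LRPPRC, had 3 of 16 higher and 0 lower, with a median of 0.12. The 3 were MRRF, which recycles ribosomes (log2 fold change 0.39, SE 0.065, adjusted p = 0.000113), LRPPRC, which stabilises mitochondrial messenger RNAs (log2 fold change 0.29, SE 0.058, adjusted p = 0.000633), and MTIF2, an initiation factor (log2 fold change 0.31, SE 0.064, adjusted p = 0.00109). PTCD3, a small subunit protein without an MRPS symbol, rose (log2 fold change 0.19, SE 0.064, adjusted p = 0.0346), 1 of 5 in its list. Import genes counted 5 higher and 2 lower of 17, led by HSPA9, the import motor of the matrix (log2 fold change 0.40, SE 0.051, adjusted p = 4.48e-06). The regulators of mitochondrial biogenesis counted 3 higher and 0 lower of 8, MYC (log2 fold change 0.25, SE 0.063, adjusted p = 0.00469), GABPA (log2 fold change 0.23, SE 0.082, adjusted p = 0.0379) and GABPB1 (log2 fold change 0.31, SE 0.11, adjusted p = 0.0461), the last pair being the ETS factor that binds many promoters of nuclear mitochondrial genes. DESeq2 called MYC alone, with adjusted p of 0.0720 for GABPA and 0.110 for GABPB1. Among members with the ETS letters, 3 of 28 were called higher and 1 lower in LoVo, with a median of 0.086. Those without had 6 higher and 2 lower of 40, with a median of 0.103. A link between these factors and the members was not tested. Assembly factors had 0 higher and 1 lower of 26, RCC1L (log2 fold change -0.27, SE 0.062, adjusted p = 0.00240). The list of synthetases and amidotransferase subunits had 1 higher and 0 lower of 20. That gene, QRSL1, is a subunit of the glutamyl-tRNA amidotransferase and not a synthetase (log2 fold change 0.32, SE 0.089, adjusted p = 0.00943). Genes for mitochondrial DNA expression split, SUPV3L1 (log2 fold change 0.27, SE 0.072, adjusted p = 0.00808) and MTPAP (log2 fold change 0.23, SE 0.074, adjusted p = 0.0235) rising and POLRMT, the mitochondrial RNA polymerase, falling (log2 fold change -0.26, SE 0.077, adjusted p = 0.0151), of 17. Mitochondrially encoded genes counted 7 higher and 1 lower of 15 with a median of 0.19, and cytosolic ribosomal proteins 57 higher and 0 lower of 80 with a median of 0.24. Both of these medians lay above the members' 0.10, and neither difference was tested.

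The head-to-head neighbours were set beside the changes of the members, as counts with no test. They include MRPL46 and MRPS11, which are members themselves. For 13 of the 29 members the member and its neighbour overlap at their starts. Of the 27 neighbours tested in LoVo, edgeR called 3 higher and 5 lower, against 12.6% of all genes higher and 13.7% lower, with a median log2 fold change of 0.02. DESeq2 called 2 higher and 3 lower, where it called 1619 of 16253 genes higher and 1709 lower. Of the 27 tested in HCT116, edgeR called 0 in either direction, against 0.507% of all genes higher and 0.407% lower, with a median of 0.07. DESeq2 called 1 of these 27 higher, where it called 196 of 15980 genes higher. At an unadjusted p under 0.05, 6 neighbours were higher and 1 lower, against 7.56% and 6.82% of all genes. MRPS27 and PTCD2 rose together in LoVo, whereas MRPL49 fell and FAU rose. SLC7A7, next to MRPL52, rose most (log2 fold change 0.73, SE 0.067, adjusted p = 2.53e-08). MRPL52 did not pass the test (log2 fold change 0.18, SE 0.085, adjusted p = 0.124). EME2, next to MRPS34, fell (log2 fold change -0.34, adjusted p = 0.00354), as did PNPLA7, next to MRPL41 (log2 fold change -0.56, adjusted p = 0.000702). MRPS34 (log2 fold change -0.09, SE 0.082, adjusted p = 0.448) and MRPL41 (log2 fold change 0.04, SE 0.091, adjusted p = 0.804) did not pass the test. Also called lower were TMEM63B, next to MRPL14, PELI3, next to MRPL11, and IGHMBP2, next to MRPL21, whose members were not called.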

How the data were processed

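RNA was sequenced in 12 libraries, 3 in each of 4 groups, and columns were mapped to them by their headings. The least certain match is that of the Vector columns to the HCT116 controls. Per the submitters' processing notes, HISAT2 2.1.0 was used and the build was GRCh38. The deposited counts are whole numbers of reads per gene with no normalisation, and the deposited FPKM table holds FPKM computed by the authors from those counts and a gene length. Reads of overlapping, antisense or near-identical genes may be shared, since the sources used here give neither the read counter nor its annotation and strand setting. Of 62656 gene identifiers, 58220 matched GENCODE v29, which gave symbols, positions and exon overlaps on GRCh38. Promoter sequences are those of RefSeq on GRCh38.p14.

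Counts were tested per line with the quasi-likelihood F test of edgeR 4.0.16 in R 4.3.3 (TMM factors, filterByExpr), with Benjamini-Hochberg adjustment over all genes tested and calls at an adjusted p under 0.05. The differences between lines came from 1 fit of all 12 libraries over 18199 genes. The filter left genes with 99.8% of the counts in each fit, and the biological coefficient of variation was 6.00% in HCT116 and 6.41% in LoVo. CPM are TMM-normalised, per line except between the lines. The scripts were tested on simulated data. Of genes simulated with a log2 fold change of 0.3, 31.6% were recovered in HCT116 and 28% in LoVo. At a log2 fold change of 1, 93% and 89% were recovered, and 66.7% in the difference between lines. Changes of 0.3 or less can thus be missed. Libraries of a group differed by more than sampling noise, with a chi-square per degree of freedom of 2.48 to 7.33 over 12 pairs.

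Alternatives were RLE and upper quartile factors, DESeq2 1.42.0, no filter, limma 3.58.1 on log2(FPKM + 1) and log2(FPKM + 0.1), 1 fit of all 12 libraries, a replicate block, and each library left out. Named per line were all called members and the smallest p-values to 10. Also named were the 6 smallest for the difference, the 5 largest per direction between lines, and the 5 highest and lowest levels. The MRPS18 paralogs, up to 3 genes per other list, and head-to-head neighbours were named as well. Genes that share exon bases with a called member, MRPS25 in HCT116, and called neighbours of uncalled members were chosen after their values were seen. The members and lists were chosen with earlier results of these data known. A further marker check is not reported here.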

Additional observations from a re-analysis of the deposited data

Results flagged for a closer look

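The following 15 members passed edgeR's test of the difference between the lines, adjusted over 18199 genes, in which the change of LoVo KD against control is added to that of HCT116 OE against control. The largest positive values were MRPL54 at 0.71 (SE 0.19, adjusted p = 0.0110), MRPS36 at 0.64 (SE 0.17, adjusted p = 0.00945), MRPS33 at 0.63 (SE 0.13, adjusted p = 0.00142) and MRPS35 at 0.61 (SE 0.10, adjusted p = 0.000112). MRPL58 had 0.59 (SE 0.13, adjusted p = 0.00251), MRPL15 0.54 (SE 0.11, adjusted p = 0.00112), MRPL50 0.46 (SE 0.12, adjusted p = 0.0110) and MRPL45 0.44 (SE 0.093, adjusted p = 0.00190). Smaller differences were found for MRPL24 (difference 0.41, SE 0.13, adjusted p = 0.0344), MRPL36 (difference 0.39, SE 0.12, adjusted p = 0.0308), MRPL18 (difference 0.37, SE 0.12, adjusted p = 0.0347), MRPL37 (difference 0.36, SE 0.081, adjusted p = 0.00286), MRPS27 (difference 0.35, SE 0.079, adjusted p = 0.00290) and MRPL3 (difference 0.26, SE 0.088, adjusted p = 0.0467). MRPS6 was the negative one, at -0.56 (SE 0.14, adjusted p = 0.00693). With each of the 12 libraries left out in turn, MRPL24 and MRPL18 kept the call in 6 of 12 fits, MRPL36 in 8 and MRPL3 in 2, and the other 11 in all 12. MRPL54, MRPL50, MRPL37, MRPL24, MRPL36, MRPL18 and MRPL3 were called in neither line alone. The changes of MRPL54 and MRPL50 were 0.43 and 0.22 in HCT116 and 0.28 and 0.23 in LoVo.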

How the results depend on the processing

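Members called higher in HCT116 numbered 1 with TMM and RLE factors, 0 with upper quartile factors, 3 with DESeq2, 5 without the filter, 0 in the fit of all 12 libraries and 0 with limma at either pseudocount, and 0 to 9 with 1 library left out (9 without control 3). All HCT116 calls numbered 146, of which 55.5% were higher (41.8% with upper quartile factors), and became 281 with DESeq2, 256 without the filter, 15 and 11 with limma on log2(FPKM + 1) and log2(FPKM + 0.1), and 37 to 287 with 1 library left out. The members' median in HCT116 stayed between 0.11 and 0.19.

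In LoVo, members called higher numbered 11, with 4 and 5 by limma at pseudocounts of 1 and 0.1, and 7 to 14 with 1 library left out. Members called lower numbered 3, with 1 by DESeq2, 1 without the filter, 1 by limma on log2(FPKM + 1), and 1 to 3 with 1 library left out. All LoVo calls numbered 4278, with 1462 and 1674 by limma at pseudocounts of 1 and 0.1, and 2769 to 4813 with 1 library left out. The members' median stayed between 0.05 and 0.14. Members called higher in the difference between lines numbered 14, and 10 to 26 with 1 library left out (26 without HCT116 control 3).

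MRPS18C, uncalled throughout and with few counts, changed sign. In HCT116 it had 0.025 with limma on log2(FPKM + 0.1) and, with 1 library left out, from -0.50 (without control 1) to 0.18, positive without control 2 (0.12) and control 3. In LoVo it ran from -0.28 (without KD 2) to 0.099, positive without control 2 (0.023), control 3 (0.078), KD 1 (0.040) and KD 3. The causes of these shifts were not tested. Over the members named for each comparison, 52 values under alternatives lost a call and 24 gained one.

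The labels number the libraries alike in both arms, but nothing says the numbers pair them, and deviations of same-numbered libraries correlated at 0.00286 to 0.0228 in HCT116 and 0.0153 to 0.0604 in LoVo. As a hint from the data only, 2 of 6 libraries in HCT116 and 6 of 6 in LoVo correlated best with their own number. With a replicate block, 25 members were called higher in HCT116 (1322 genes in all), 20 in LoVo, and 32 in the difference between lines (4015 genes in all). The totals hold both directions, and the share of all genes called higher with the block is not given here. These counts are therefore not read as a result about the members.

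Depth limits the low members most, since MRPS18C had 18 to 62 counts in HCT116 libraries and MRPL53 had 0 in all 12.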
